A study of Mus musculus with 45 samples.

Results

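Kit, Myb, Cd34, Flt3, Cd48, Hlf, Runx1, Meis1 and Mecom are 9 genes of blood stem and progenitor cells, chosen by their symbols among the 13449 genes of the deposited table, in which all 9 were found. Their mRNA was followed in fetal mouse liver at E15.5 across genotype, cell type and fraction. VavCre females, whose Cre is driven by the Vav promoter in blood cells, were mated with males homozygous for a floxed allele of Rpl5 or of Rps19, which encode a protein of the large and of the small ribosomal subunit. The genotypes were Rpl5flox/+ and Rps19flox/+ without Cre, used as controls, and VavCre Rpl5flox/+ and VavCre Rps19flox/+, so that every embryo carried a floxed allele and no group carried VavCre alone. All livers were treated with emetine, at 25 µg/mL for 15 min, which halts ribosomes on mRNA. Kit+ cells were taken with magnetic beads, and Ter119+ cells were then taken from what the Kit beads left behind, so the level of Kit between the cell types reflects the sort and is no finding. Its level within Kit+ cells of any genotype may also be held by the sort. Cells were pooled by genotype, and sucrose gradients gave a cytoplasmic and a polysomal fraction, whose polyadenylated RNA was sequenced. The 45 libraries, from 24 pools, fall into 16 groups, of which 14 hold 3 libraries, VavCre Rpl5flox/+ Kit+ polysome holds 1 and Rpl5flox/+ Ter119+ polysome holds 2. Nothing in the labels says that replicate pools came from separate litters, so each p-value is set by how far the libraries of a group lie apart, which may be technical.

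Blood stem cells of the fetal liver divide and give progenitors that commit to the erythroid, myeloid, megakaryocytic or lymphoid lineages. Kit and Flt3 are receptor tyrosine kinases. Kit binds stem cell factor and is kept by stem cells, early erythroid progenitors and mast cells, while Flt3 binds Flt3 ligand and marks multipotent progenitors with lymphoid and myeloid potential. Cd34 is a sialomucin of progenitor and endothelial surfaces, and Cd48 is a surface protein of the SLAM family that is used to tell progenitors from stem cells. Myb, Runx1, Hlf, Meis1 and Mecom are transcription factors: Myb is needed for definitive blood formation and is shut down as erythroid cells mature, Runx1 is needed for the first stem cells and acts in most blood lineages, and Hlf, Meis1 and Mecom are known for the upkeep of stem cells.

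Depth was 22.9 to 70.1 M (mega) reads a library for the cytoplasm of Kit+ cells and 45.0 to 123 M for that of Ter119+ cells. Polysome libraries were shallower, with 1.01 to 37.6 M reads from Kit+ and 1.02 to 39.8 M from Ter119+ cells, and 4 of them held under 2 M. Those are Rpl5flox/+ Kit+ replicate 3, Rps19flox/+ Kit+ replicates 1 and 3 and VavCre Rpl5flox/+ Ter119+ replicate 3. Levels are normalized counts, which are reads divided by a size factor of the library, and changes are differences of the deposited log2 values, which understate the fold of low genes. In Kit+ cytoplasm Rpl5 was at 437 to 579 with VavCre Rpl5flox/+ against 930.3 to 1112 in its controls, and Rps19 was at 11750 to 14495 with VavCre Rps19flox/+ against 16201 to 20144. The cytoplasm of Ter119+ cells did not follow the genotype for Rpl5. It was at 455 to 549 with VavCre Rpl5flox/+ and at 295 to 459 in its controls, higher rather than lower (0.44, limma adjusted p = 0.0278). Rps19 was higher in the same comparison (1.08, limma adjusted p = 1.7e-05). The libraries of that group are therefore called the libraries labelled VavCre Rpl5flox/+ Ter119+. Rps19 in Ter119+ cytoplasm was at 10787 to 13710 with VavCre Rps19flox/+ against 13048 to 15378 in its controls, so those groups overlapped (-0.21, limma adjusted p = 0.302). Rpl5 was also lower in Kit+ cytoplasm of the Rps19 line, at 491 to 748 with VavCre Rps19flox/+ against 866 to 1042 (-0.59, limma adjusted p = 0.00476). Reads of Rpl5 and of Dipk1a, which overlaps it, may not be separable. Cdkn1a, a p53 target, was at 2753 to 11378 in the 12 VavCre cytoplasm libraries and at 54.4 to 146 in the 12 controls. The cell types carried their markers: Slc4a1, the anion exchanger of the red cell membrane, was at 364399 to 777566 in control Ter119+ cytoplasm and at 5825 to 9376 in control Kit+ cytoplasm.

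The genes lie on chromosomes 5 (Kit, 75574987 to 75656722, and Flt3, 147330741 to 147400489), 10 (Myb, 21124930 to 21160984), 1 (Cd34, 194938821 to 194961292, and Cd48, 171681245 to 171705258), 11 (Hlf, 90336535 to 90390917, and Meis1, 18880428 to 19019651), 16 (Runx1, 92601466 to 92826074) and 3 (Mecom, 29951296 to 30509759), all protein-coding, in the GRCm38.p6 annotation, whose UCSC name is mm10. Noncoding genes overlap Cd34, Flt3, Runx1, Meis1 and Mecom, and none of those is in the deposited table. Below are the 250 bases before the annotated start of 4 members, from RefSeq on GRCm38.p6, 5′ to 3′ on the gene's strand. Kit and Myb are shown because they rose together in Ter119+ cells of both lines, and Cd34 and Flt3 because they changed in opposite directions in the 2 lines there. Capitals mark matches to the motifs searched on both strands, which were GATAA (GATA factors), TGTGGT (Runx), AACTG (Myb), GGAAGT (Ets) and CACGTG (E-box).
Kit (chr5:75574737-75574986, plus strand): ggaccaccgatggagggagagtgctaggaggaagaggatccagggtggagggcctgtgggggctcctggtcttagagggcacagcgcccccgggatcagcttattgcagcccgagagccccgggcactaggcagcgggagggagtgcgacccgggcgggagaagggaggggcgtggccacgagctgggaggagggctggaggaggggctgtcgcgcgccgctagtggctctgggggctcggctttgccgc
Myb (chr10:21160985-21161234, minus strand): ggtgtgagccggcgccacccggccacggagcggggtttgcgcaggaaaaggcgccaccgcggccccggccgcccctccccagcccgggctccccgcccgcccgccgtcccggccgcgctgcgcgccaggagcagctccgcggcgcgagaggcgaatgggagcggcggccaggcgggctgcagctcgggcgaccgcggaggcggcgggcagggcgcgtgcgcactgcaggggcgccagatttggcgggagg
Cd34 (chr1:194938571-194938820, plus strand): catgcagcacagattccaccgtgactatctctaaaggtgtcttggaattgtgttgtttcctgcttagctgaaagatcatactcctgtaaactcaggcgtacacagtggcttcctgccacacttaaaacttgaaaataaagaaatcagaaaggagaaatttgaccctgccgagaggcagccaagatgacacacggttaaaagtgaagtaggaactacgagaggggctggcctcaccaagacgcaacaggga
Flt3 (chr5:147400490-147400739, minus strand): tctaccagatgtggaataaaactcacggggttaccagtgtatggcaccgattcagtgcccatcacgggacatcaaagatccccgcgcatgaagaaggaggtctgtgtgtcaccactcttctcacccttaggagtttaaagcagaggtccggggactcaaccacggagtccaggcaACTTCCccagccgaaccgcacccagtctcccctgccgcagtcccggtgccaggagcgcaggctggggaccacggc
In these 4 windows the only match was the Ets letters of Flt3, which begin at base -75 counted from the start and read on the opposite strand. The Ets letters are in 19.7% of the 32851 promoters of the table. Among the 12 windows of all 9 members, Cd48 and Meis1 each hold a Runx match (14% of all promoters), the first Runx1 promoter holds 2 Myb matches (39.1%) and the E-box (6.02%), Meis1 also holds an Ets match, and each of the 2 Mecom windows holds a GATA match (22.6%). The windows of Kit and Myb, at 70.8% and 81.2% G and C, hold none of these letters, and neither do those of Cd34, Hlf and the second Runx1 promoter. A match is a description of letters, and its absence says nothing about a factor.

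The first question was how the members are spread between the cell types in the controls. In control cytoplasm all 8 members tested were lower in Ter119+ than in Kit+ cells. Kit is among them through the sort and is no finding. Of all genes tested 44.0% were lower and 59.6% had libraries that did not overlap between the cell types. Mecom had a mean normalized count under 10 in every comparison as reported and was not tested there. Kit was at 1382 to 1971 in the 6 control Kit+ libraries and at 3.54 to 83.4 in the 6 control Ter119+ libraries, as the sort sets. Myb was at 1536 to 1856 in control Kit+ cells and at 101 to 198 in control Ter119+ cells, with no overlap (-3.51 ± 0.12, limma adjusted p = 3.29e-17). Among the genes tested 0.0545% had a lower change than Myb. Cd34 was at 558 to 824 against 111 to 271 (-1.94 ± 0.18, adjusted p = 8.12e-10), and Flt3 was at 122 to 209 against 15.2 to 57.7 (-1.85 ± 0.20, adjusted p = 1.3e-08). Cd48 (-1.78 ± 0.17), Meis1 (-1.74 ± 0.20) and Hlf (-1.27 ± 0.17) were also lower with no overlap. Runx1 differed least, at 459 to 576 in Kit+ cells and 346 to 603 in Ter119+ cells, and its groups overlapped although the change passed the test (-0.26 ± 0.08, adjusted p = 0.00308). In bulk samples such as these, fewer cells of a type and less RNA per cell cannot be told apart.

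In the cytoplasm of Kit+ cells 5 of the 8 members tested were higher with VavCre Rpl5flox/+ and 0 were lower, where 20.8% of all genes tested were higher, 16.4% were lower and 51.0% had groups that did not overlap. Kit and Flt3, the receptors, did not pass the test. Kit was at 1480, 1440 and 1719 with VavCre Rpl5flox/+ and at 1625, 1599.96 and 1971 in the controls (-0.16 ± 0.10, adjusted p = 0.233, 95% interval -0.38 to 0.06). Flt3 was at 155, 212 and 217 against 157, 209 and 153 (0.16 ± 0.20, adjusted p = 0.57, interval -0.27 to 0.58). For both receptors the libraries of the groups overlapped.

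The mRNA of the surface proteins Cd34 and Cd48 rose. Cd34 was at 1225, 1799.7 and 1341 with VavCre Rpl5flox/+ against 712, 824 and 789 in the controls (0.88 ± 0.16, adjusted p = 0.000923). Cd48 was at 362, 509 and 366 against 179.9, 146 and 146 (1.30 ± 0.16, adjusted p = 3.46e-05), 2.63 times the control mean. In both genes every VavCre library lay above every control library.

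Of the transcription factors, Hlf was at 123, 153 and 93.3 with VavCre Rpl5flox/+ against 50.2, 43.1 and 56.3 (1.08 ± 0.20, adjusted p = 0.00116). Runx1 was at 796, 814 and 764 against 576, 535 and 562 (0.49 ± 0.10, adjusted p = 0.00135), and Meis1 was at 156, 158 and 119.6 against 85.1, 110.1 and 81.6 (0.58 ± 0.18, adjusted p = 0.022). None of these 3 overlapped between the groups, but Meis1 missed the threshold without VavCre replicate 1 or 2 or without control replicate 1 or 3 (adjusted p = 0.0737 to 0.0817). Myb was at 2173, 2149 and 1879 against 1587, 1636 and 1830.1, with no overlap, and did not pass (0.29 ± 0.12, adjusted p = 0.0616). With the replicate block, which fits these libraries because same-numbered libraries deviated together, Myb passed (adjusted p = 0.0411), as it did without VavCre replicate 3 (0.36, adjusted p = 0.0428).

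With VavCre Rps19flox/+ 6 of the 8 members tested were lower in Kit+ cytoplasm and 0 were higher, where 26.1% of all genes tested were lower, 27.6% were higher and 60.9% had groups that did not overlap. The 6 include the 5 that were higher with VavCre Rpl5flox/+, and Flt3. Kit was at 1385, 1549 and 1599 against 1393, 1549 and 1382 in the controls (0.07 ± 0.10, adjusted p = 0.593, interval -0.15 to 0.28). Flt3 fell from 129, 122 and 123 to 13.4, 29.3 and 14.5 (-2.14 ± 0.20, adjusted p = 2.42e-06), to 0.153 of the control mean. Only 0.523% of all genes had a lower change. Flt3 thus lay far below its controls, while Kit, on which these cells were sorted, overlapped between the groups. The difference between the 2 receptors was not tested.

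Cd34 fell from 558, 719 and 679 in the controls to 181, 256 and 171 with VavCre Rps19flox/+ (-1.63 ± 0.16, adjusted p = 4.37e-06), and Cd48 fell from 118, 125 and 113 to 47.1, 64.5 and 49.5 (-0.98 ± 0.16, adjusted p = 0.000178). Meis1 fell from 81.8, 111 and 88.0 to 28.2, 45.7 and 39.6 (-1.07 ± 0.18, adjusted p = 0.000276). Hlf fell from 47.5, 55.6 and 54.4 to 14.5, 31.4 and 23.7 (-0.89 ± 0.20, adjusted p = 0.00253). Runx1 fell from 459, 515 and 466 to 301, 374 and 361 (-0.46 ± 0.10, adjusted p = 0.00119). In all 5 genes every VavCre library lay below every control library. Myb was at 1537, 1977 and 2107 against 1536, 1856 and 1629, and these groups overlapped (0.15 ± 0.12, adjusted p = 0.278, interval -0.10 to 0.40). Without VavCre replicate 1 the change of Myb passed the test (0.29, adjusted p = 0.0236).

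**Figure D1:**
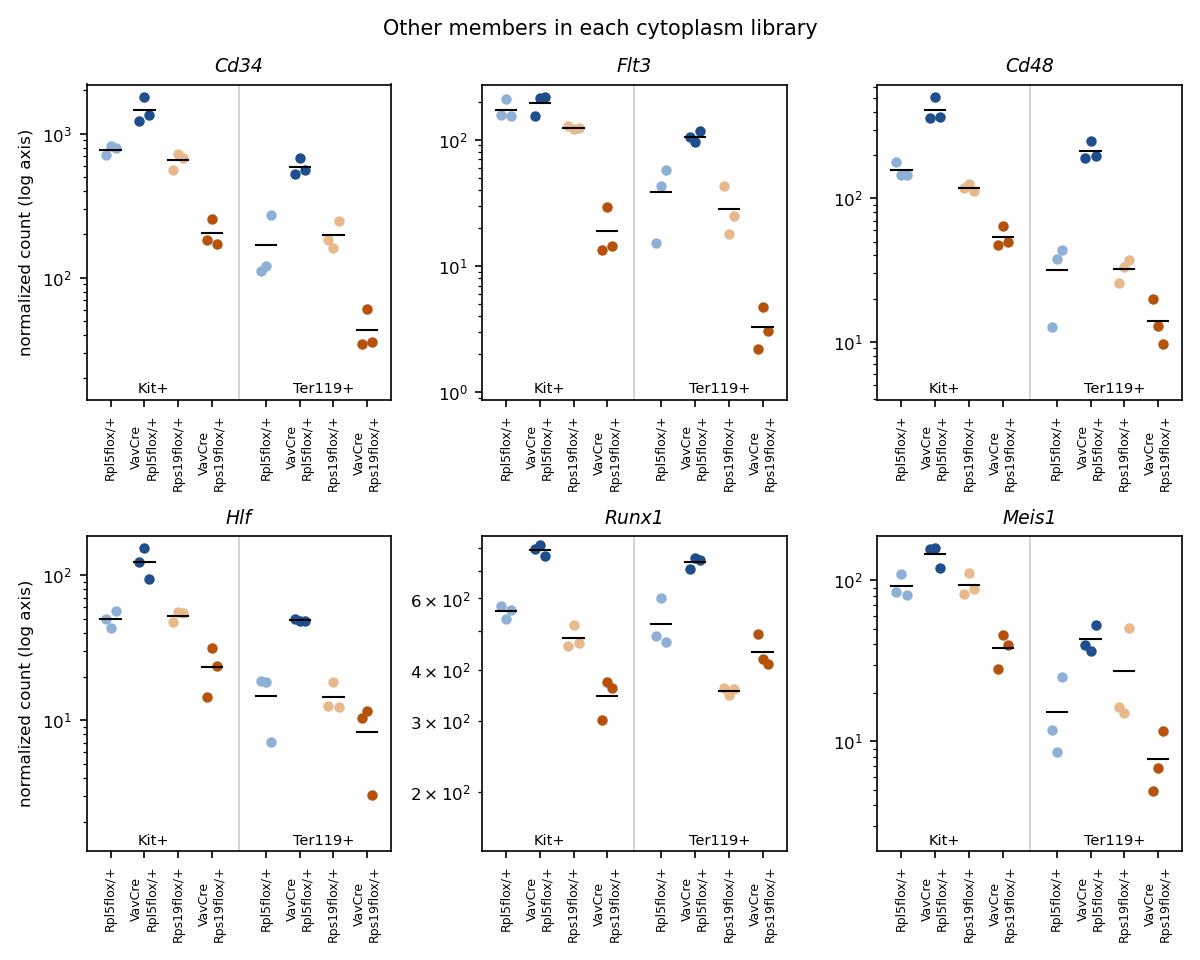
Normalized count (log axis, its range set for each gene) of Cd34, Flt3, Cd48, Hlf, Runx1 and Meis1 in each cytoplasm library, by genotype within Kit+ cells (left of the grey line) and Ter119+ cells (right). Points are libraries and bars are group means. In Kit+ cells the VavCre Rpl5flox/+ points lie above and the VavCre Rps19flox/+ points below their own controls for all but Flt3, whose VavCre Rpl5flox/+ points (155 to 217) overlap the controls.

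In Ter119+ cytoplasm Kit and Myb stood far above the controls in both lines. Kit was at 759, 721 and 852 in the libraries labelled VavCre Rpl5flox/+ Ter119+ against 26.96, 25.7 and 83.4 in their controls, 17.1 times the control mean (3.87 ± 0.52, adjusted p = 1.98e-05). Without control replicate 3, the highest control, the ratio was 29.5. With VavCre Rps19flox/+ it was at 363, 230.1 and 332 against 68.0, 54.0 and 3.54, 7.37 times the control mean (2.86 ± 0.52, adjusted p = 0.00162). The lowest VavCre library of each line was above the highest control library.

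Myb was at 1229, 1144 and 1098 in the libraries labelled VavCre Rpl5flox/+ Ter119+ against 101, 151 and 198 in the controls, 7.72 times the control mean (2.87 ± 0.21, adjusted p = 1.04e-07). With VavCre Rps19flox/+ it was at 556, 440.1 and 649.6 against 133, 130.5 and 109, 4.43 times the control mean (2.01 ± 0.21, adjusted p = 4.13e-05). The groups did not overlap in either line. The changes of Kit and Myb were above those of 99.8% and 99.1% of the genes tested for Rpl5, and of 99.9% and 99.4% for Rps19.

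**Figure D2:**
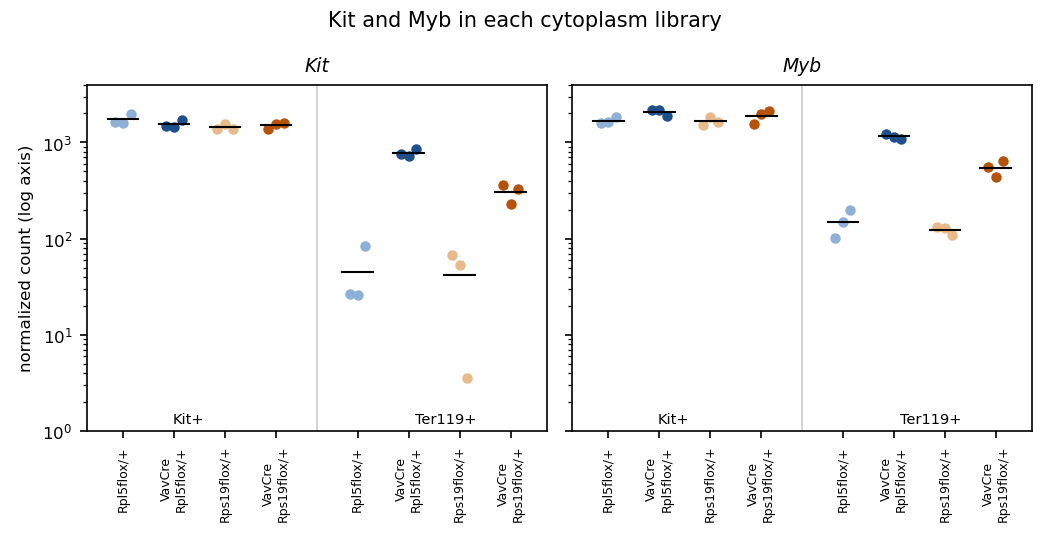
Normalized count (log axis) of Kit and Myb in each cytoplasm library, by genotype within Kit+ cells (left of the grey line) and Ter119+ cells (right). Points are libraries and bars are group means. In Kit+ cells the 4 genotypes lie close together, and in Ter119+ cells Kit is at 721 to 852 and 230.1 to 363 in the VavCre groups, above all 6 controls (3.54 to 83.4).

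The other members changed with the line in Ter119+ cells. In the libraries labelled VavCre Rpl5flox/+ Ter119+ all 8 members tested were higher, where 35.3% of all genes tested were higher, 30.1% were lower and 71.7% had groups that did not overlap, and the median change of all genes was 0.16. In VavCre Rps19flox/+ Ter119+ cells 2 of 8 were higher (Kit and Myb) and 2 were lower (Cd34 and Flt3), where 12.5% of all genes tested were higher, 13.3% were lower and 43.1% had groups that did not overlap. Flt3 was at 104, 95.4 and 117 in the libraries labelled VavCre Rpl5flox/+ Ter119+ against 15.2, 42.9 and 57.7 in the controls (1.30 ± 0.34, adjusted p = 0.00395). With VavCre Rps19flox/+ it was at 2.20, 4.70 and 3.04 against 42.7, 17.8 and 24.8 (-1.50 ± 0.34, adjusted p = 0.00602). Flt3 thus lay above all its controls in the first line and below all of them in the second.

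Cd34 was at 520.2, 681 and 559 in the libraries labelled VavCre Rpl5flox/+ Ter119+ against 111, 121 and 271 (1.82 ± 0.29, adjusted p = 9.56e-05). With VavCre Rps19flox/+ it was at 34.6, 60.6 and 35.5 against 182, 161 and 246 (-1.88 ± 0.29, adjusted p = 0.000613). Cd48 was at 189.8, 252 and 196 against 12.6, 38.0 and 43.6 for Rpl5 (2.41 ± 0.30, adjusted p = 1.18e-05), and at 19.8, 12.8 and 9.64 against 25.6, 33.5 and 37.1 for Rps19, which did not pass (-0.78 ± 0.30, adjusted p = 0.0741). In all 4 of these comparisons the groups did not overlap.

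Among the transcription factors in the libraries labelled VavCre Rpl5flox/+ Ter119+, Hlf was at 49.95, 48.5 and 48.6 against 18.5, 18.4 and 7.05 (1.23 ± 0.30, adjusted p = 0.00259), and Runx1 was at 711, 755 and 747 against 485, 603 and 469 (0.50 ± 0.13, adjusted p = 0.00373). Meis1 was at 39.6, 36.5 and 53.0 against 11.8, 8.58 and 25.0 (1.06 ± 0.36, adjusted p = 0.0176). None of the 3 overlapped, and Meis1 missed the threshold without control replicate 1 or 2 or VavCre replicate 3 (adjusted p = 0.0517 to 0.0679). With VavCre Rps19flox/+ none of the 3 passed: Hlf (-0.45 ± 0.30, adjusted p = 0.287), Runx1 (0.31 ± 0.13, adjusted p = 0.0986) and Meis1 (-0.93 ± 0.36, adjusted p = 0.0692). Their libraries did not overlap the controls all the same, Hlf being at 3.04 to 11.5 against 12.4 to 18.4, Runx1 at 415 to 490 against 346 to 361 and Meis1 at 4.94 to 11.7 against 15.0 to 50.4.

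**Figure D3:**
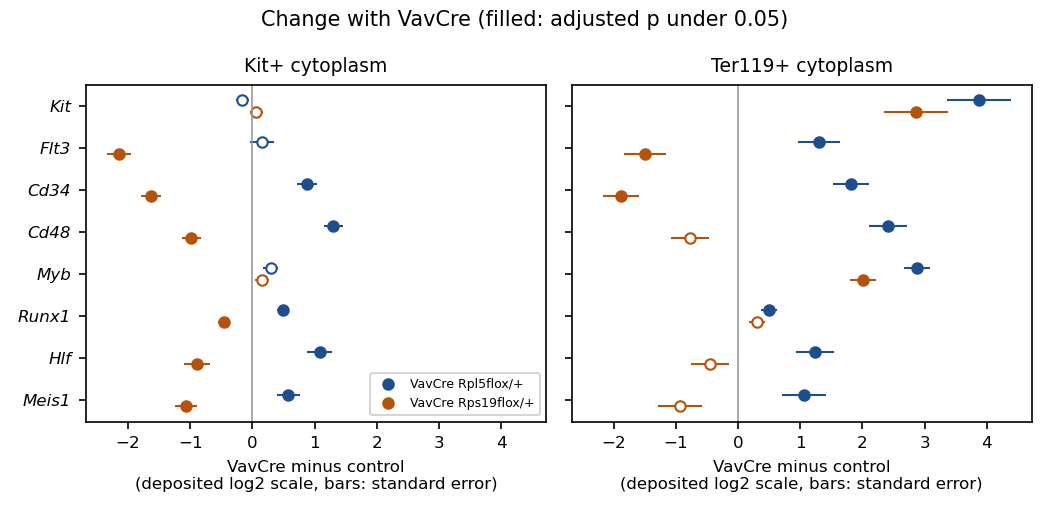
Change of each member tested with VavCre against the controls of its own line, on the deposited log2 scale, in Kit+ cytoplasm (left) and Ter119+ cytoplasm (right). Bars are the standard error of the limma fit, and filled points have an adjusted p under 0.05. In Ter119+ cells Kit (3.87 and 2.86) and Myb (2.87 and 2.01) lie far to the right in both lines, while Flt3 (1.30 and -1.50) and Cd34 (1.82 and -1.88) lie on opposite sides of 0.

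The levels in Ter119+ cells can be set beside those in Kit+ cells of the same genotype. Mean Kit in Ter119+ cytoplasm was 2.62% of mean Kit in Kit+ cytoplasm for Rpl5flox/+ (1.52% without Ter119+ replicate 3) and 2.90% for Rps19flox/+. It was 50.3% for VavCre Rpl5flox/+ and 20.4% for VavCre Rps19flox/+, and these libraries still lay below all Kit+ libraries of their genotype. Mean Myb was 8.89% and 7.41% in the controls, 56.0% for VavCre Rpl5flox/+ and 29.3% for VavCre Rps19flox/+. Runx1 was alone among the members in being higher in Ter119+ than in Kit+ cells in a genotype, at 128.5% for VavCre Rps19flox/+, where the Ter119+ libraries (415 to 490) lay above the Kit+ libraries (301 to 374). For Flt3 the share was 22.3% and 22.8% in the controls, 54.3% for VavCre Rpl5flox/+ and 17.4% for VavCre Rps19flox/+.

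The change in Ter119+ cells was tested against the change in Kit+ cells, a comparison in which each change has its own controls. For Rpl5, 5 of 8 members had the higher change in Ter119+ cells, where 25.8% of all genes tested did. They were Kit (4.03 ± 0.57, adjusted p = 8.65e-06), Myb (2.58 ± 0.24, adjusted p = 7.44e-08), Flt3 (1.14 ± 0.39, adjusted p = 0.0207), Cd48 (1.11 ± 0.34, adjusted p = 0.0103) and Cd34 (0.94 ± 0.35, adjusted p = 0.0315). Cd34 and Flt3 lost the call without VavCre Kit+ replicate 1, control Ter119+ replicate 1 or control Kit+ replicate 2 (adjusted p = 0.0572 to 0.104). Cd34 also lost it without control Ter119+ replicate 2, VavCre Ter119+ replicate 2 or replicate 3 of either Kit+ group (adjusted p = 0.0543 to 0.090). For Rps19, 3 of 8 had the higher change, where 3.93% of all genes tested did: Kit (2.80 ± 0.57, adjusted p = 0.00462), Myb (1.86 ± 0.24, adjusted p = 0.000235) and Runx1 (0.77 ± 0.15, adjusted p = 0.0038). Runx1 fell in Kit+ cells of that line and was higher, short of the threshold, in Ter119+ cells. For Kit the change in Kit+ cells may be held by the sort. Its difference in either line therefore cannot be read apart from its change in Ter119+ cells.

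Whether the 2 lines differed in their change was tested in each cell type, as Rpl5 minus Rps19. In Kit+ cytoplasm it was higher for 6 of 8 members, where 23.2% of all genes tested were higher: Cd34 (2.51 ± 0.23), Flt3 (2.30 ± 0.28), Cd48 (2.28 ± 0.22), Hlf (1.97 ± 0.29), Meis1 (1.65 ± 0.26) and Runx1 (0.96 ± 0.14), with adjusted p-values from 7.42e-06 to 0.000193. Kit (-0.23, adjusted p = 0.203) and Myb (0.14, adjusted p = 0.498) did not pass. In Ter119+ cytoplasm it was also higher for 6 of 8, where 20.5% of all genes tested were higher. Cd34 (3.70 ± 0.41, adjusted p = 3.92e-05), Cd48 (3.19 ± 0.43, adjusted p = 0.000114), Flt3 (2.80 ± 0.48, adjusted p = 0.000546), Meis1 (2.00 ± 0.50, adjusted p = 0.00653) and Hlf (1.69 ± 0.43, adjusted p = 0.00656) differed most between the lines.

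The larger rise of Myb with Rpl5 in Ter119+ cells passed the test (0.86 ± 0.29, adjusted p = 0.0291), and that of Kit did not (1.01, adjusted p = 0.289). The call for Myb was lost in 7 of the 12 fits without a library, those without control replicate 1 or VavCre replicate 1 or 2 of either line or control replicate 2 of Rps19flox/+ (adjusted p = 0.0511 to 0.0775), and with size factors computed within the fit (0.78, adjusted p = 0.0571). The result for Kit turned on Rps19flox/+ Ter119+ replicate 3, whose 3.54 normalized counts came from 4 reads: without it the difference between the lines passed (1.79, adjusted p = 0.00858).

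Mecom was low throughout. In Kit+ cytoplasm it was at 3.08 to 3.82 in Rpl5flox/+, 6.62 to 10.4 in VavCre Rpl5flox/+, 2.16 to 6.001 in Rps19flox/+ and 0.822 to 6.94 in VavCre Rps19flox/+, from 6 to 36 reads a library. The VavCre Rpl5flox/+ libraries lay above their controls, with no test. In Ter119+ cytoplasm 7 of 12 libraries had 0 reads of it, and on polysomes 6 of 10 Kit+ and 11 of 11 Ter119+ libraries had 0. Its highest level was 68.3 from 33 reads, in the only VavCre Rpl5flox/+ Kit+ polysome library, beside 10.4 in the cytoplasm of the same pool.

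Across the 8 cytoplasm groups the order of mean Kit ran from the 4 Kit+ groups, whose neighbours overlapped, through VavCre Rpl5flox/+ Ter119+ (777 ± 67.2) and VavCre Rps19flox/+ Ter119+ (308 ± 69.5), each apart from its neighbours, to the 2 control Ter119+ groups, which overlapped (45.4 ± 32.9 and 41.8 ± 33.9; SD, n = 3). The order of mean Myb had the same shape, with 1157 ± 66.4 and 549 ± 105 in the VavCre Ter119+ groups and 149.8 ± 48.2 and 124 ± 13.2 in the controls. The order of Flt3 was different. VavCre Rps19flox/+ Kit+ cells, at 19.1 ± 8.87, overlapped the control Ter119+ cells (38.6 ± 21.6 and 28.4 ± 12.8), and VavCre Rps19flox/+ Ter119+ cells were lowest at 3.31 ± 1.27. Cd34 was highest in VavCre Rpl5flox/+ Kit+ cells (1455 ± 304) and lowest in VavCre Rps19flox/+ Ter119+ cells (43.6 ± 14.8), and its level in VavCre Rps19flox/+ Kit+ cells (203 ± 46.8) overlapped that of control Ter119+ cells of the same line (196 ± 44.1).

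Other genes of these pathways were taken from 2 lists of textbook members, described by their counts and medians. Beside each count stands the share of all genes tested that passed in that direction. Among other stem and progenitor genes in Kit+ cytoplasm, 18 of 32 tested were higher (20.8% of all genes) and 2 lower (16.4%) with VavCre Rpl5flox/+ (median 0.60, all genes 0.03), led by Gfi1 (1.72, adjusted p = 2.17e-05), a repressor that acts in stem cells and granulocytes, Ikzf1 (-0.52), Cd27 (0.84) and Spi1 (0.95). With VavCre Rps19flox/+ 2 were higher (27.6% of all genes) and 19 lower (26.1%; median -0.66, all genes 0.01), led by Cd93 (-1.68, adjusted p = 6.6e-06), Cd27 (-1.49), the fetal chromatin factor Hmga2 (-1.68) and the myeloid factor Spi1 (-1.39). In Ter119+ cytoplasm 14 of 27 were higher (35.3% of all genes) and 5 lower (30.1%) for Rpl5 (median 0.84, all genes 0.16), led by Lmo2 (-1.81), Lyl1 (-1.61), Cbfb (1.85), the partner of Runx1, and Hmga2 (2.99). For Rps19 1 was higher (12.5% of all genes), Bmi1 (1.09), and 3 were lower (13.3%), among them Spi1 (-1.49) and Lmo2 (-0.50), with a median of -0.25 (all genes -0.03). The 3 of 27 lower lie close to the share of all genes.

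Among the genes of Kit and Flt3 signalling in Kit+ cytoplasm, 12 of 23 tested were higher (20.8% of all genes) and 4 lower (16.4%) with VavCre Rpl5flox/+ (median 0.36). With VavCre Rps19flox/+ 9 were higher (27.6% of all genes) and 6 lower (26.1%), with a median of 0.08. The 4 of 23 and 6 of 23 lower lie close to the shares of all genes. Gab2, an adaptor that couples receptors to kinases, rose in both lines, by 1.32 (adjusted p = 2.19e-05) and 1.62 (adjusted p = 2.46e-06). With VavCre Rpl5flox/+ Pik3cd, a catalytic subunit of PI3 kinase (0.84), and the kinase Lyn (0.74) were higher, and the phosphatase Ptpn11 was lower (-0.59). With VavCre Rps19flox/+ Etv5, an Ets factor of growth factor signalling, was higher (1.93), Pik3r1, a regulatory subunit of PI3 kinase, was lower (-1.36), and Stat5a rose by 0.80. In Ter119+ cytoplasm 13 of 23 were higher (35.3% of all genes) and 7 lower (30.1%) for Rpl5 (median 0.57), and 6 were higher (12.5%) and 3 lower (13.3%) for Rps19 (median 0.10). The 7 of 23 and 3 of 23 lower again lie close to the shares of all genes. Spry1, a feedback inhibitor of receptor tyrosine kinases, rose by 3.64 (adjusted p = 1.33e-07) and 2.15 (adjusted p = 0.000149), and Stat5a, which carries signals of Kit and of the erythropoietin receptor, rose by 2.17 and 1.45. For Rpl5 Lyn was higher there (1.72, adjusted p = 1.39e-06) and Pik3r1 lower (-2.39, adjusted p = 2.76e-06). For Rps19 Gab2 (1.67, adjusted p = 0.000333) and Etv5 (1.02, adjusted p = 0.00624) were higher.

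**Figure D4:**
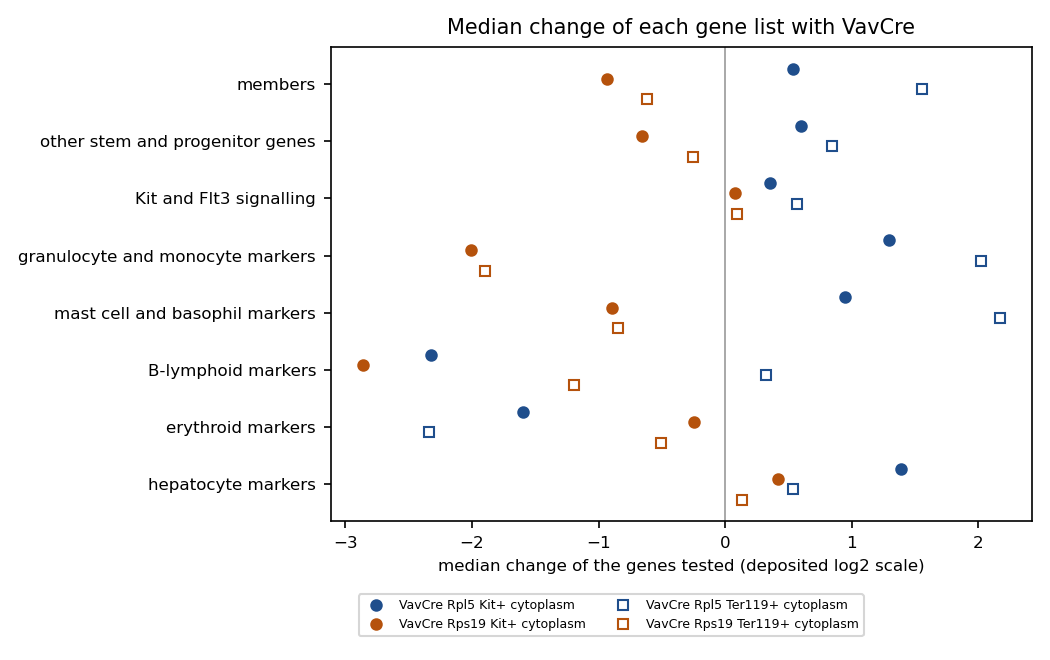
Median change of the genes tested in each list with VavCre, on the deposited log2 scale, in Kit+ cytoplasm (filled circles) and Ter119+ cytoplasm (open squares), blue for VavCre Rpl5flox/+ and orange for VavCre Rps19flox/+. The medians of the 8 members tested are 0.54 and -0.93 in Kit+ cells and 1.56 and -0.61 in Ter119+ cells, and those of the granulocyte and monocyte markers are 1.30, -2.01, 2.02 and -1.89.

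Markers of other cell types moved with the groups, and sums of their normalized counts are given with VavCre first. Of all genes tested in Kit+ cytoplasm 20.8% were higher and 16.4% lower for Rpl5, and 27.6% and 26.1% for Rps19. There the sum of 19 granulocyte and monocyte markers was 61809.5 to 121356 against 31354 to 35082 for Rpl5, and 15 of 19 passed as higher. It was 4250.5 to 8874 against 21315 to 29965 for Rps19, and 19 of 19 passed as lower. The B-lymphoid markers were lower for 9 of 9 tested in both lines, with sums of 291 to 377 against 1307 to 1716 for Rpl5 and 29.1 to 53.8 against 659 to 1413 for Rps19. Erythroid markers were lower for 15 of 16 with Rpl5 and 5 of 16 with Rps19, a share close to that of all genes. Hepatocyte markers were higher for 13 of 14 with Rpl5 (sums 23503 to 43503 against 6092 to 19395) and 1 of 14 with Rps19. No marker of these 4 lists was at 0 in all libraries of a Kit+ cytoplasm group. Megakaryocyte and platelet markers were lower for 3 of 10 with Rpl5 (894 to 993 against 968 to 1074) and 8 of 10 with Rps19 (497 to 596 against 945 to 1028). The part of these cells in the changes of Cd34, Flt3, Cd48, Hlf, Runx1 and Meis1 was not tested.

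In Ter119+ cytoplasm Slc4a1 was at 61081 to 86206 in the libraries labelled VavCre Rpl5flox/+ Ter119+ against 364399 to 777566 in the controls, and at 312522 to 361534 against 374830 to 476882 for Rps19. All 16 erythroid markers passed as lower for Rpl5 (30.1% of all genes) and 4 of 16 for Rps19 (13.3%). Of the 7 mast cell and basophil markers, whose cells also carry Kit, 5 were tested and all were higher for Rpl5 (35.3% of all genes), with a sum of 656 to 1142 against 63.2 to 132. For Rps19 3 of the 5 were lower, with a sum of 27.4 to 37.9 against 100.4 to 124, Tpsb2 and Cma1 being at 0 in all VavCre libraries. The granulocyte and monocyte markers were higher for 17 of 19 for Rpl5 (58533 to 119186 against 11201 to 21092) and lower for 14 of 19 for Rps19 (2502 to 4435 against 10441.5 to 21690.2), while Kit and Myb were higher in both lines. The part of these cells in the levels of Kit and Myb was not tested.

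Other blood and stromal markers were also lower with VavCre Rps19flox/+ in Ter119+ cytoplasm, where Cd34 and Flt3 were lower. Of all genes tested there 13.3% were lower. Macrophage markers were lower for 8 of 11 (median -1.29), with a sum of 772 to 1302 against 1572 to 4927. Among them were Vcam1 (-1.46), C1qa (-1.64), C1qb (-1.61) and C1qc (-1.52). Megakaryocyte and platelet markers were lower for 5 of 10 (810.04 to 932 against 907 to 1650.3), among them Pf4 (-1.43) and Ppbp (-1.48). Endothelial and stromal markers were lower for 3 of 10 (379.8 to 566 against 468 to 825), which were Cdh5 (-0.93), Stab2 (-0.87) and Lyve1 (-0.62). The sums of the megakaryocyte and of the endothelial markers overlapped those of the controls. B-lymphoid markers were lower for 3 of 5 tested (8.11 to 22.5 against 114 to 255), among them Cd79b (-2.16), and Ebf1, Pax5 and Il7r were at 0 in all 3 VavCre libraries. In the libraries labelled VavCre Rpl5flox/+ Ter119+ the counts higher and lower were 0 and 1 of 11 macrophage, 0 and 3 of 10 megakaryocyte, 1 and 2 of 10 endothelial and 1 and 0 of 5 B-lymphoid markers. Of all genes tested there 35.3% were higher and 30.1% lower, and none of these counts exceeds that share in its direction. The part of these cells in the changes of Cd34 and Flt3 was not tested.

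The polysome libraries were compared next. In control Kit+ cells all 8 members tested were lower on polysomes than in the cytoplasm of the same pools, where 50.6% of all genes tested were lower and the median change of all genes was -1.34. With size factors computed within the fit that median was -1.99, so a change here is read against it. Kit (-1.39 ± 0.24, adjusted p = 0.00131) and Myb (-1.05 ± 0.17, adjusted p = 0.000951) lay close to the median of all genes. Cd34 (-4.43 ± 0.76, adjusted p = 0.0011), Cd48 (-4.32 ± 0.37, adjusted p = 2.62e-05) and Flt3 (-3.36 ± 0.57, adjusted p = 0.0011) lay below it. Each of these genes had control polysome libraries at 0 reads. Meis1 (-2.60), Runx1 (-1.94, adjusted p = 0.0242) and Hlf (-1.89) were lower too, Runx1 missing the threshold with size factors computed within the fit, on the log2 scale with 1 added, with only the groups compared, or without any of the 3 Rpl5flox/+ pools (adjusted p = 0.0523 to 0.0677).

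The reads behind these values were few. Cd48 had 0 reads in all 6 control Kit+ polysome libraries, where 3 reads would be 5.74 to 62.3 normalized counts, while its cytoplasm in the same pools was at 113 to 179.9. Cd34 had 0 reads in 3 of 10 Kit+ polysome libraries, all under 2 M reads, and Flt3 in 4. Among the 3 control Kit+ pools with deeper polysome libraries, Kit on polysomes was 24.1% to 36.7% of its cytoplasmic level and Myb 32.8% to 42.9%. Over all 6 control Kit+ pools Kit was at 19.6% to 82.0% and Myb at 32.8% to 77.2%. Among the 4 VavCre Kit+ pools, all with polysome libraries over 2 M reads, Kit was at 46.1% to 52.2% and Myb at 53.8% to 65.9%. These lay above the 3 deeper control pools for both genes, and inside the range of all 6, which the shallow libraries widen. The VavCre pools were 3 of VavCre Rps19flox/+ and 1 of VavCre Rpl5flox/+. The deeper control pools were Rpl5flox/+ replicates 1 and 2 and Rps19flox/+ replicate 2, so the lines were mixed unequally. The share of all genes that lay apart in this way was not counted. These percentages are of normalized counts within each fraction, so they order pools and do not give the share of mRNA on ribosomes.

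**Figure D5:**
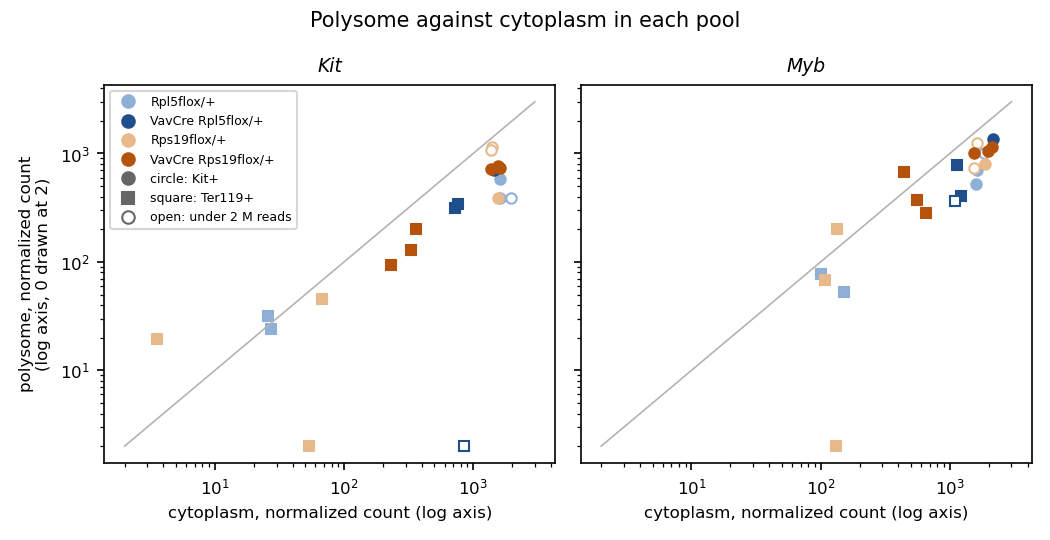
Normalized count of Kit and Myb on polysomes (vertical log axis, 0 drawn at 2) against the cytoplasm of the same pool (horizontal log axis), 1 point for each of the 21 pools with both libraries, circles for Kit+ and squares for Ter119+. Open symbols are polysome libraries under 2 M reads, and the line marks equal levels. The Kit+ pools lie below the line for both genes, and the VavCre Ter119+ pools lie between the control Ter119+ and the Kit+ pools for Kit except for an open square at 0.

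With VavCre the polysome libraries called little. No member passed for Rpl5 in Kit+ cells, with 1 VavCre library against 3 (1.82% of all genes tested were called), where Kit was at 704 against 386 to 587 and Myb at 1365 against 521 to 1011. Without the libraries under 2 M reads Myb was higher by 1.15, the lone VavCre library being assumed to vary like the other groups. Cd48 was also higher there, as was Mecom, whose mean reached the minimum in that fit. They rest on 21 and 33 reads of that 1 VavCre library (43.5 and 68.3 normalized counts) against 0 reads in the controls, so no fold is given. For Rps19 in Kit+ cells only Cd48 passed as higher, where 6.19% of all genes tested did. It was at 66.9, 53.5 and 46.7 with VavCre and at 0 in the 3 controls, which is at least 1.55-fold higher than a floor of 3 reads a library averaged over the controls (adjusted p = 0.00338). In the shallow control replicates 1 and 3 that floor was 62.3 and 39.7 normalized counts. Only in replicate 2, at 5.74, was it far below the VavCre libraries. With 0 reads in all 3, the controls add no spread of their own to the test. Kit was at 723, 768 and 737 against 386 to 1142 and Myb at 1013, 1064 and 1148 against 727 to 1257, and both overlapped.

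In Ter119+ polysomes no member passed in either line, where 13.2% of all genes tested were called for Rpl5 and 0.801% for Rps19. At an unadjusted p under 0.05 limma had 0 of 7 for Rpl5 and 1 of 7, Myb, for Rps19. For this and every other count at an unadjusted p, the share of all genes at that threshold was not counted. Kit was at 345.5, 315.5 and 0 in the libraries labelled VavCre Rpl5flox/+ Ter119+, the 0 being the library under 2 M reads, against 23.97 and 31.4 in the controls. For Rps19 it was at 199.5, 93.8 and 128 against 45.2, 0 and 19.7. Myb was at 402, 775 and 365 against 76.7 and 53.35 for Rpl5 (2.67 ± 1.25, adjusted p = 0.185), and at 373, 679 and 280.3 against 202, 0 and 68.8 for Rps19 (3.06 ± 1.12, adjusted p = 0.253). Every VavCre library lay above every control library for Myb in both lines and for Kit in Rps19, where 43.9% and 32.1% of all genes tested had groups that did not overlap. The 95% interval of the change of Kit was -2.39 to 4.84 for Rpl5 and -0.64 to 5.83 for Rps19. In each line 0 and the change of Kit in the cytoplasm (2.86 for Rps19) both lie within the interval.

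The change on polysomes was set against the change in cytoplasm within pools. For Rps19 in Kit+ cells only Cd48 passed (4.18 ± 0.75, adjusted p = 0.0161), where 5.81% of all genes tested were higher, and it missed the threshold without VavCre replicate 1, 2 or 3 (adjusted p = 0.0806 to 0.087). The 3 control polysome libraries held 0 reads of Cd48. Without Rps19flox/+ replicate 2, the only control above 2 M reads, Cd34 (6.32, adjusted p = 0.0132) and Flt3 (3.53, adjusted p = 0.0393) passed as well. The 2 controls left held 0 polysome reads of both genes, so these values rest on shallow libraries at the floor and give no fold. In Ter119+ cells no member passed for Rpl5, where 0.00918% of all genes tested were called, or for Rps19, where 0.0184% were. At an unadjusted p under 0.05 limma had 2 of 8, Flt3 and Hlf, for Rpl5 and 0 of 8 for Rps19. The share of all genes at that looser threshold was not counted. Kit was at -3.07 ± 1.76 for Rpl5 and -0.27 ± 1.57 for Rps19 and Myb at -0.41 ± 1.27 and 1.05 ± 1.13. In control cells Ter119+ polysomes held less Kit (-4.25 ± 0.87) and Myb (-3.69 ± 0.64, adjusted p = 0.000182) than Kit+ polysomes, where 7.23% of all genes tested were lower, and no other member passed. The difference in Kit is set by the sort there as well. Within control Ter119+ pools no member passed between polysomes and cytoplasm, where 8.46% of all genes tested did, the median of all genes was -0.64 and 0 of 8 members had an unadjusted p under 0.05.

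The genes whose pattern was most like each member were found by the root mean square difference of group means, each gene centred on its own mean, over the 8 cytoplasm groups and 8944 other genes with a mean of at least 50. Nearest to Myb were Rab4a (0.12), Dctd (0.18) and Rangrf (0.19), against a spread of Myb itself of 1.51. Nearest to Kit was Myb (0.58), then Ydjc (0.59) and Rab4a (0.61), so the pattern of Kit had no neighbour as close as that of Myb. Nearest to Flt3 was Satb1 (0.13), to Cd48 Plppr3 (0.12) and Adap1 (0.20), to Cd34 Ptpn18 (0.27) and Nr4a1 (0.27), to Runx1 Lin7c (0.13), to Hlf Appl1 (0.18) and to Meis1 Khdrbs3 (0.21). Among the members, Cd34 and Flt3 (0.33), Hlf and Meis1 (0.32) and Cd34 and Cd48 (0.40) lay closest to each other. Kit lay 1.53 to 1.96 from every member but Myb.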

How the data were processed

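The 45 libraries were read from 1 table of 13449 genes. Its log2 values are, as deposited, variance-stabilised counts that the authors had scaled by a size factor for each library. That was read from the values: inverting them gave whole reads for 100% of values (tolerance 1e-06). Reads were placed on mm10 per the submitters' processing notes, with an aligner and counter not given in the sources used here. Of the symbols, 13226 were found in the GRCm38.p6 table.

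Changes were tested with limma 3.58.1 (R 4.3.3, trend, two-sided) on the deposited log2 values, keeping genes whose normalized counts averaged at least 10, with Benjamini-Hochberg adjustment over all genes tested and a threshold of 0.05. Polysomes and cytoplasm were compared as differences within pools. Errors beside changes are standard errors of the fit. The fits were tested on simulated data. All 9 members were named, list genes were named as the up to 4 with the smallest adjusted p, and likeness used genes with a mean of at least 50. The members and lists were chosen with earlier results of these data known. Groups came from the labels. Deviations of same-numbered VavCre and control libraries correlated above 0.1 for every pair in the Rpl5 line's cytoplasm (0.244 to 0.305 in Kit+ and 0.134 to 0.273 in Ter119+ cells), so numbers pair these libraries. The tests as reported did not use the pairs, and the replicate block was an alternative. In the Rps19 line's cytoplasm the correlations were -0.0385 to 0.0112 in Kit+ and 0.00809 to 0.363 in Ter119+ cells, so numbers do not pair all of those libraries. Between control Ter119+ and Kit+ cytoplasm the pairs were at 0.137 to 0.258 for Rps19flox/+ and at 0.115, 0.108 and -0.061 for Rpl5flox/+, so not every number pairs there, and with the block 8 of 8 members passed as without it. In alternatives the scale, filter, size factors, weights, samples, block, shallow libraries and single replicates were varied. Precision of low genes is limited by their reads, as few as 0 to 4.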

Additional observations from a re-analysis of the deposited data

Results flagged for a closer look

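The changes with VavCre differed between groups in 20 tests of the difference itself with limma, each adjusted over all genes tested. Between the lines (Rpl5 minus Rps19) in Kit+ cytoplasm the differences were 2.51 for Cd34, 2.30 for Flt3, 2.28 for Cd48, 1.97 for Hlf, 1.65 for Meis1 and 0.96 for Runx1, on the deposited log2 scale. In Ter119+ cytoplasm they were 3.70 for Cd34, 3.19 for Cd48, 2.80 for Flt3, 2.00 for Meis1, 1.69 for Hlf and 0.86 for Myb. Between the cell types (Ter119+ minus Kit+) the differences for Rpl5 were 4.03 for Kit, 2.58 for Myb, 1.14 for Flt3, 1.11 for Cd48 and 0.94 for Cd34. For Rps19 they were 2.80 for Kit, 1.86 for Myb and 0.77 for Runx1. The differences of Kit have the limit that its level in Kit+ cells may be held by the sort. Groups of 3 libraries were not examined for single libraries that stand apart.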

How the results depend on the processing

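Of 1108 single-gene values under other settings 1094 kept their direction and side of the threshold, 5 lost and 9 gained the call, and 0 reversed. Of 1129 with 1 library left out, 1092 kept both, 30 lost and 7 gained the call, and 0 reversed. The counts of members that follow stand without the share of all genes called under each setting. A shift of the members therefore cannot be told there from a shift of all genes. With genes of a mean of at least 50, fewer members were tested, and 5 rather than 8 passed for Rpl5 in Ter119+ cytoplasm, 3 rather than 6 between the lines there and 0 rather than 1 for Rps19 in Kit+ polysomes. For Rpl5 in Kit+ polysomes, with 1 VavCre library, 0 passed as reported. Calls there moved with the scale, the filter, the groups fitted and the leaving out of libraries under 2 M reads, and the cause was not tested. Without those libraries 1 member, Runx1, passed between polysomes and cytoplasm of control Ter119+ cells (-0.90, adjusted p = 0.0227). With the replicate block 0 rather than 1 passed for the polysome change against the cytoplasm change of Rps19 in Kit+ cells (Cd48, adjusted p = 0.096), Meis1 passed for Rps19 in Ter119+ cytoplasm (adjusted p = 0.0387), and apart from Myb for Rpl5 in Kit+ cytoplasm no other call of a member changed. With 1 library left out, the members called ranged from 4 to 6 for Rpl5 and 6 to 7 for Rps19 in Kit+ cytoplasm, 7 to 8 for Rpl5 and 4 to 4 for Rps19 in Ter119+ cytoplasm, 1 to 2 for Rps19 in Kit+ polysomes (Cd34 gained without Rps19flox/+ replicate 2, adjusted p = 0.0404), 5 to 7 between the lines in Ter119+ cells, 3 to 5 between the cell types for Rpl5, 7 to 8 between polysomes and cytoplasm in control Kit+ cells, 0 to 3 for the polysome change against the cytoplasm change of Rps19 in Kit+ cells and 0 to 1 for that of Rpl5 in Ter119+ cells (Hlf, without VavCre replicate 2, -3.21, adjusted p = 0.0345). Rpl5 in Kit+ polysomes could not be fitted without its only VavCre library. Without Rps19flox/+ Kit+ replicate 2 the controls left held 0 polysome reads of Cd34 and Flt3. Few reads limit Mecom everywhere and Cd34, Flt3, Cd48 and Hlf on polysomes.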
